A study of Mus musculus with 8 samples.

Results

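The chromatin of 5 genes was followed: Mapk8, which encodes the stress kinase Jnk1, the glucose transporter gene Slc2a1, the glycolytic enzyme genes Hk2 and Ldha, and Ppargc1a, which encodes PGC-1α, a coactivator of mitochondrial genes. Each gene was represented by a fixed interval of 35 to 125 kb. Its members were all peaks of the histone marks H3K4me3 and H3K27me3 that overlapped the interval. Regions are named after the interval, and which gene each belongs to was not tested. In the 8 peak lists, 66 of 233295 peaks met this rule, 50 for H3K4me3 and 16 for H3K27me3. Merged over the 4 libraries of a mark, wherever peaks shared at least 1 bp, they made 12 of 54585 H3K4me3 regions and 7 of 26634 H3K27me3 regions. At 6 of the 12 H3K4me3 regions both 60M libraries lay beyond both 5M libraries in the same direction under every measure of strength tried: the strongest Mapk8 region and 2 Slc2a1 regions were lower at 60M, and 1 Ldha and 2 Ppargc1a regions were higher. Of the 35229 H3K4me3 regions listed in all 4 libraries, 15% were lower throughout and 16.2% higher throughout under 4 of these 5 measures. The measures were not independent, since all came from the same immunoprecipitates. H3K27me3 was listed in all 4 libraries at 2 places, both in the Ppargc1a interval, and there it did not separate the ages.

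The cells were germline stem cells, the cultured counterpart of spermatogonial stem cells, taken from the testis of wild type mice of the Green strain, C57BL/6 Tg14(act-EGFP)OsbY01, in a DBA/2 background. Both groups therefore carried the EGFP transgene, named act-EGFP in the labels. The 5M cells had been cultured for about 5 months and the 60M cells for about 60 months, in medium based on Iscove's modified MEM with human FGF2, rat GDNF and fetal bovine serum. The series title names aging through Wnt7b and Jnk. Of the genes followed, only Mapk8 belongs to a pathway of the title, and the others concern glycolysis and mitochondria. The comparison asks how the marks at all of them differ after long culture. There were 2 libraries for each mark and age. Whether these were separate cultures is not stated in the labels, and any p-value or spread given here may be technical only. Lysates were made by sonication alone or with micrococcal nuclease added, and which library had which is not stated. The H3K4me3 lists held 41637 to 47415 peaks and the H3K27me3 lists 12002 to 14940. Read totals are not in the lists, so the depth behind each peak is unknown.

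H3K4me3, trimethylated lysine 4 of histone H3, marks the start sites of genes that are active or ready to be. H3K27me3 is laid down by Polycomb repressive complex 2 and marks silenced genes, and regions that hold both marks are called bivalent. Jnk kinases answer stress and Wnt signals and phosphorylate the AP-1 factor c-Jun. In glycolysis GLUT1, the Slc2a1 product, brings glucose into the cell, hexokinase 2 phosphorylates it, and lactate dehydrogenase A turns pyruvate into lactate at the end of the path. PGC-1α is a coactivator of the factors that drive mitochondrial biogenesis and respiration. Spermatogonial stem cells in culture are known for a strong reliance on glycolysis.

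The promoters are shown because H3K4me3 is the mark of promoters and tends to lie where CG pairs are dense. All 5 genes matched the RefSeq promoter table by symbol, with 7 entries among them, since Mapk8 and Ldha each have a second, inner start. Below are the 250 bases before the first start of each gene, 5′ to 3′ on the gene's strand, with each CG pair in capitals. Coordinates are those of GRCm38.p6, another build than that of the peaks, so these stretches were not placed on the peaks, and a gene's listed start may be another than the one under its strongest peak. Mapk8 is at chr14:33447159-33447408 on the minus strand, Slc2a1 at chr4:119108495-119108744 on the plus strand, Hk2 at chr6:82774455-82774704 on the minus strand, Ldha at chr7:46845554-46845803 on the plus strand, and Ppargc1a at chr5:51567726-51567975 on the minus strand.
Mapk8: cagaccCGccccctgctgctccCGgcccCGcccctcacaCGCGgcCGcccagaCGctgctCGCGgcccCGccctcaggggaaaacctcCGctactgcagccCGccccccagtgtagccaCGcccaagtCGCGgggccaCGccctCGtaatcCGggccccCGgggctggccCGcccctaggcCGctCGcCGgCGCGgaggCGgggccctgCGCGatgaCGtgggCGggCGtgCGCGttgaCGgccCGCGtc
Slc2a1: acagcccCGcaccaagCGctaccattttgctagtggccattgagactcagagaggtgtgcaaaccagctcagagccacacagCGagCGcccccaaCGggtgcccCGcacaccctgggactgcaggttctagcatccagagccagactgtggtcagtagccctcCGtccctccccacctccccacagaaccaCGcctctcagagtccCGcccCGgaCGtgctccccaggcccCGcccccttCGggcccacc
Hk2: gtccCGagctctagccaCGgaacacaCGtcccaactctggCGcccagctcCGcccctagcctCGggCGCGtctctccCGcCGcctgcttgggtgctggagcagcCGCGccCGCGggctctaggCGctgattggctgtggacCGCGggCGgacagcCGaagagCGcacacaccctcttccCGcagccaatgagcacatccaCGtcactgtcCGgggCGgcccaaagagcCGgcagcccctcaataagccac
Ldha: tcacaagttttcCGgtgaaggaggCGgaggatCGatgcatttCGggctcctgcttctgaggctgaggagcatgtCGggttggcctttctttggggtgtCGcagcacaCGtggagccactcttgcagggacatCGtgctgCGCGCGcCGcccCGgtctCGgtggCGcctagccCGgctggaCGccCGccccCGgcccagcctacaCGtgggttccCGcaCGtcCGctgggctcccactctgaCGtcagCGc
Ppargc1a: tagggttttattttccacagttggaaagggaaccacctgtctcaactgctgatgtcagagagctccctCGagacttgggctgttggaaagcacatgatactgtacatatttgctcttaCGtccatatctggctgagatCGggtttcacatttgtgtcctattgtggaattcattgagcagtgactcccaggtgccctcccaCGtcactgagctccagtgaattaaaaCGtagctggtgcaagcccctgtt

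CG pairs numbered 36 before the Mapk8 start, 25 before Hk2, 25 before Ldha, 13 before Slc2a1 and 5 before Ppargc1a, where the median of the 32851 entries of the table was 6. Relative to what the base composition alone would give, the observed over expected ratio was 0.943 for Mapk8, 0.886 for Ldha, 0.848 for Hk2, 0.515 for Slc2a1 and 0.347 for Ppargc1a, against a median of 0.374. The first starts of the kinase gene and both enzyme genes thus lay in the upper part of the range. The only listed Ppargc1a start lay just under its middle, and it may be another than the one under the strongest Ppargc1a peak. The inner starts had fewer, 1 CG pair for Mapk8 and 9 for Ldha. Letters of known motifs were searched on both strands in all 7 stretches. The GC box GGGCGG stood in 4 of the 7, against 32.7% of all entries, and 7 copies of it lay before the Mapk8 start. The hypoxia response element cores ACGTG and GCGTG stood in 5 and 3 of the 7, against 16.6% and 28.2%. Before Ldha there were 5 ACGTG matches, 4 of which lay inside its 2 copies of the E-box CACGTG, a motif that 6.02% of all entries held. The cAMP response element TGACGTCA was before Ldha alone among the 7, against 1.55% of all entries. The AP-1 site TGACTCA and the TATA box TATAAA were in none of the 7, against 4.46% and 12.4%. The GC box, the hypoxia cores, the E-box and the cAMP response element each contain a CG pair. The shares were not adjusted for the number of CG pairs. These are matches of letters and not measured sites.

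**Figure D1:**
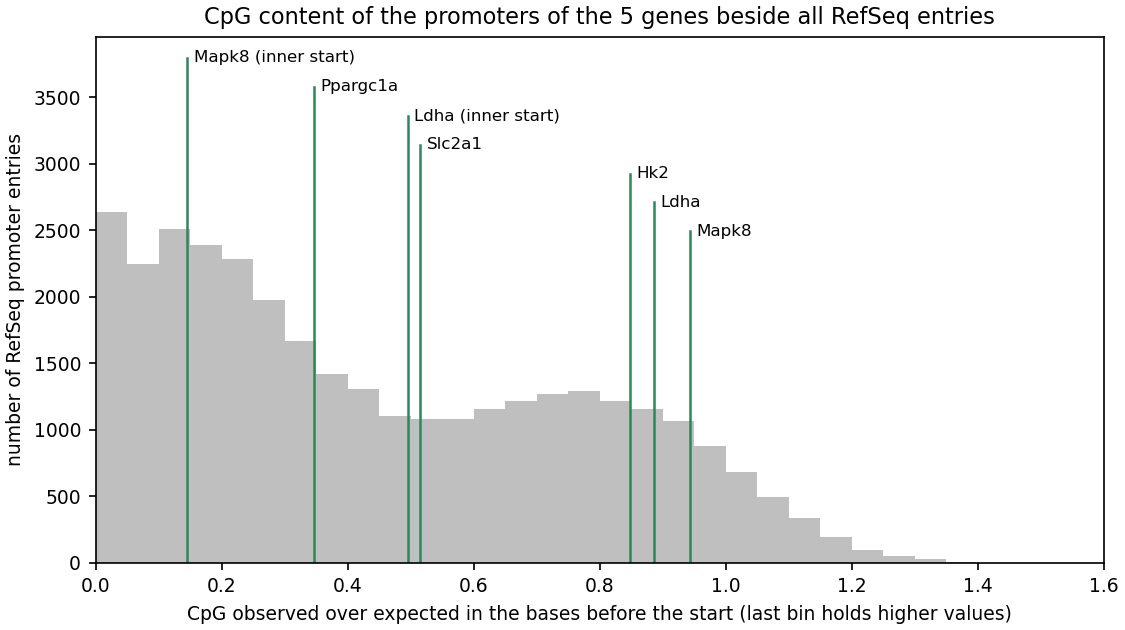
Distribution of the observed over expected CG ratio in the bases before the start for all RefSeq mouse promoter entries (grey bars, number of entries on the y axis), with a line for each of the 7 entries of the 5 genes. The first starts of Mapk8, Ldha and Hk2 lie at 0.848 to 0.943, Slc2a1 at 0.515 and Ppargc1a at 0.347, and the inner starts at 0.145 for Mapk8 and 0.495 for Ldha.

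Strength was taken from the maximum immunoprecipitation signal that the authors list for each peak. The sources used here do not give its scaling between libraries, so the main measure is the percentile of a peak within its own list, from 0 for the weakest to 100 for the strongest. A region counts as lower or higher at 60M where both 60M libraries lie below or above both 5M libraries. With 2 libraries at each age an exact two-sided permutation test has only 6 arrangements and cannot go below p = 0.333, so no difference here passes a threshold of 0.05. The p was 0.333 for each region called lower or higher.

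All 12 H3K4me3 regions were listed in all 4 libraries, as were 64.5% of all H3K4me3 regions. None of the 12 was listed at 5M only, a pattern of 10.1% of all regions, and none at 60M only, the pattern of 4.46%. By percentile, 6 of the 12 were lower at 60M, 4 were higher and 2 overlapped, beside 44.5% lower and 21.4% higher among the 35229 regions listed in all 4 libraries, called shared regions from here on. The median change of the 12 was -2.98 percentile points, within a range of -11.4 to 20.1, and that of the 35229 was -1.52. With every list cut to the length of the shortest, 3 of the 12 were lower and 5 higher, so the balance of lower and higher depends on list length. The matching shares of all shared regions were not taken for lists of that length. In the full lists, among shared regions at or above the 75th percentile, to which the strongest regions of Mapk8, Hk2, Slc2a1 and Ldha belong, 51.6% were lower and 16.5% higher. In the class of 25 to 75, which holds the other 8, 45.6% were lower and 20.7% higher. On a second scale, the log2 signal centred so that the median region did not change, 3 of the 12 were lower, 5 were higher and 4 overlapped, beside 26.4% and 36% of the shared regions. Before centring the median log2 ratio of 60M over 5M was 0.06. Under 5 measures (these scales, the signal as deposited, the percentile of lists cut to equal length, and the percentile by the −log10 p of the immunoprecipitate alone) 3 regions were lower throughout and 3 higher throughout. Under the 4 measures run over the shared regions, all but the lists of equal length, 15% of them were lower throughout and 16.2% higher. The 5 measures were not independent. All came from the same immunoprecipitates, and all but the −log10 p from the same maximum signal.

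**Figure D2:**
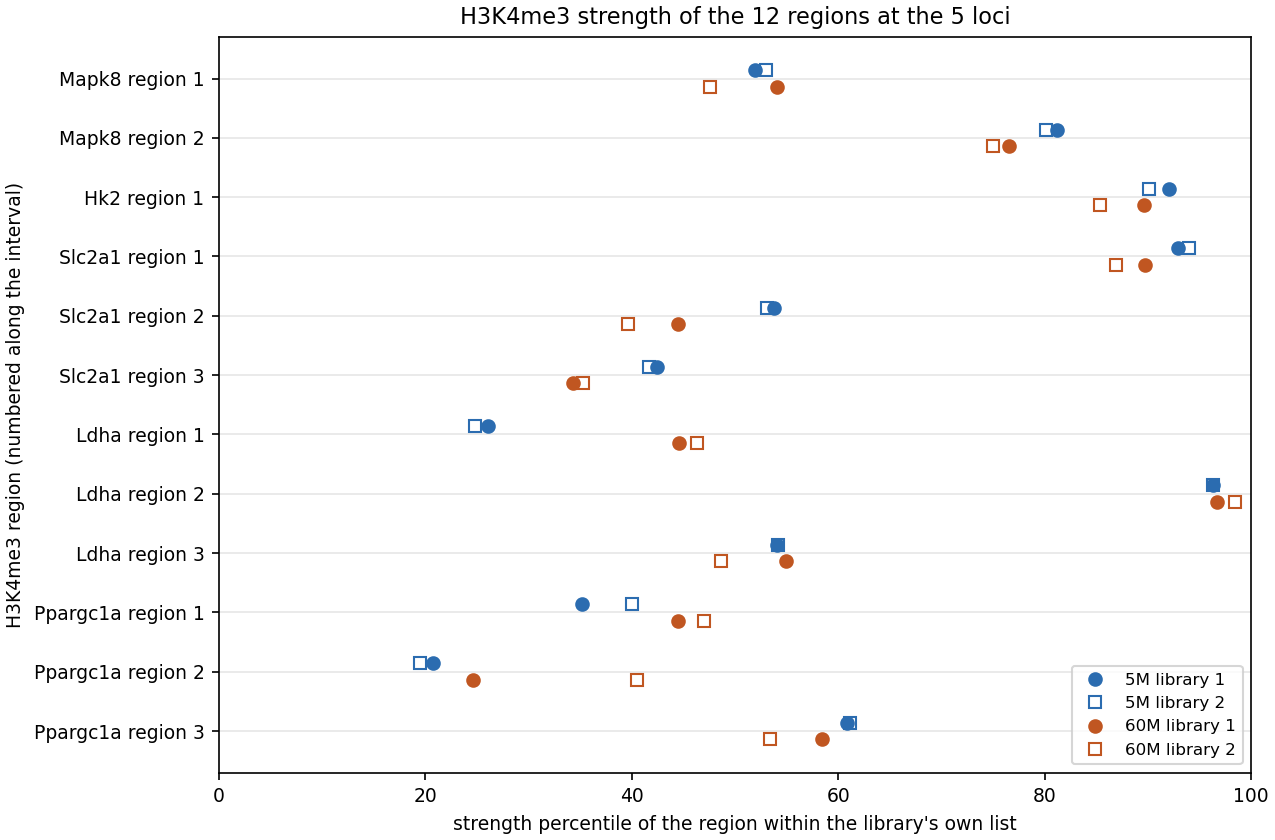
Strength percentile (x axis) of each of the 12 H3K4me3 regions (y axis) in its library's own list, with 5M libraries in blue and 60M libraries in orange. The 3 Slc2a1 regions lie lower at 60M on this scale, although the third overlaps in signal, while Ldha region 1 moves from about 25.4 to 45.5 on average.

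**Figure D3:**
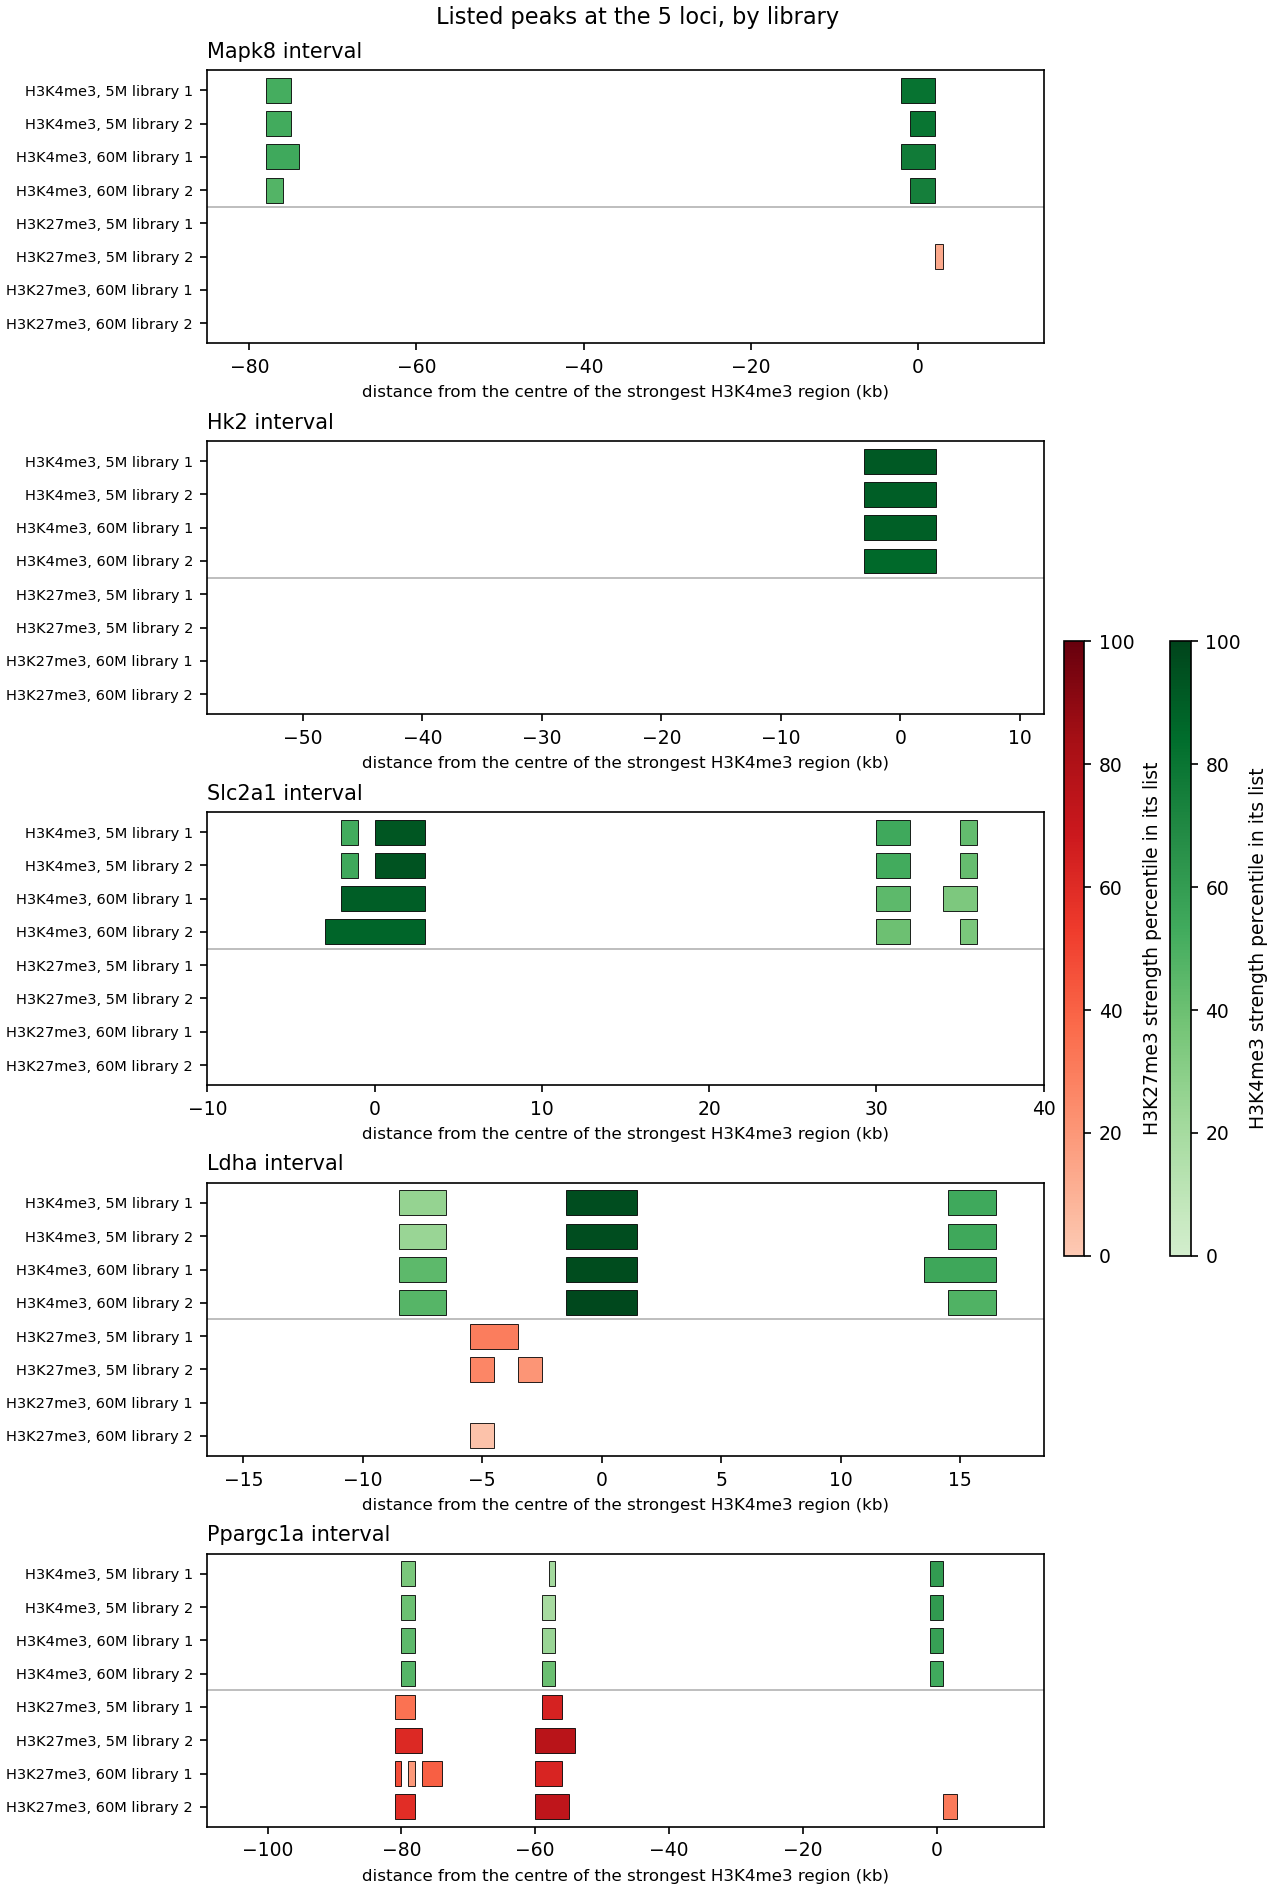
Peaks listed in each library across the 5 intervals, placed by distance in kb from the centre of the strongest H3K4me3 region and shaded by strength percentile (green H3K4me3, red H3K27me3). Hk2 and Slc2a1 have no listed H3K27me3 peak, and H3K27me3 lies over 2 of the 3 Ppargc1a H3K4me3 regions in every library.

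Mapk8, the Jnk1 gene, had 2 H3K4me3 regions in its 100 kb interval, chr14:34175000-34275000. The stronger one, chr14:34258000-34261999, had signals of 492.2 and 450.2 in the 5M libraries and 447.5 and 425.1 in the 60M libraries. Its percentile was 81.2 and 80.1 at 5M and 76.6 and 74.99 at 60M. Both 60M libraries were thus below both 5M libraries, on the signal as deposited as well as on the percentile. The means were 80.7 ± 0.756 at 5M and 75.8 ± 1.14 at 60M (SD, n = 2), a difference of -4.86 points, or -3.09 with lists of equal length, and the centred log2 change was -0.16. Among the 11061 regions with a mean percentile of at least 75, 8.996% changed at least as far downwards by percentile and 22.9% by centred signal. The median centred log2 change of that class was -0.12. Leaving out any 1 library gave -5.67 to -4.06 points. The direction could not turn, since both 60M libraries lay below both 5M libraries. The other Mapk8 region, chr14:34182000-34185999, had percentiles of 52.0 and 53.0 at 5M and of 54.1 and 47.6 at 60M. The ages overlapped there by percentile, although with lists of equal length it was higher at 60M by 2.96 points, while its signal of 194 and 195.7 at 5M was below the 241.6 and 224.9 at 60M, so its call depends on the scale. H3K27me3 was listed in this interval in 1 library only, the second of 5M, as a 1 kb peak with a signal of 35.3 at chr14:34262000-34262999, next to the strongest H3K4me3 region. That peak stood at the 13.2 percentile of its list.

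The glucose transporter gene Slc2a1 had 3 H3K4me3 regions and no H3K27me3 peak in any library in its 50 kb interval, chr4:118770000-118820000. All 3 were lower at 60M by percentile of the full lists, beside 44.5% of the shared regions. With lists of equal length 2 were lower and the third overlapped. At the strongest, chr4:118777000-118782999, the percentile was 92.9 and 94.0 at 5M and 89.8 and 86.9 at 60M. The signals there were 648.5 and 624.4 at 5M and 593.2 and 527.2 at 60M, so the groups did not overlap on either scale. Averages of 93.5 ± 0.7495 and 88.3 ± 2.01 (SD, n = 2) differed by -5.12 points and the centred log2 change was -0.24. In the class of regions at or above the 75th percentile, 7.504% were as far down by percentile and 2.17% by centred signal.

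The same Slc2a1 region changed its outline. In both 5M libraries it was made of 2 peaks, a weak one at chr4:118778000-118778999 with signals of 197.9 and 204.6 and a strong one at chr4:118780000-118782999, with 1 kb between them that was not listed. In both 60M libraries it was 1 continuous peak of 5 and 6 kb, against 4 kb listed in each 5M library. Of the 35229 regions listed in all 4 libraries, 105 (0.298%) went from several peaks in both 5M libraries to 1 in both 60M libraries, and 9 (0.0255%) went the other way. Of the 12 regions, this one alone was wider in both 60M libraries, where 7.43% of the shared regions were, and none was narrower, where 2.49% were. H3K4me3 at this region thus covered more bases at 60M while its maximum was lower.

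The second Slc2a1 region, chr4:118810000-118811999, had percentiles of 53.8 and 53.1 at 5M and of 44.4 and 39.7 at 60M. Signals were 205 and 196.4 at 5M and 184.4 and 181.6 at 60M, lower in both 60M libraries. The means differed by -11.4 points (53.5 ± 0.492 against 42.0 ± 3.38, SD, n = 2), and by -7.15 points with lists of equal length. In the full lists 11.1% of the regions between the 25th and 75th percentile changed as far down. The third region, chr4:118814000-118815999, was lower by percentile of the full lists (-7.31 points), overlapped with lists of equal length (-1.92 points) and overlapped by signal, at 147.5 and 141.6 for 5M and 137.4 and 159.6 for 60M. It was lower under 2 of the 5 measures.

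Hexokinase 2, which traps glucose in the cell, had a single H3K4me3 region, chr6:82720000-82725999, in its 70 kb interval, chr6:82665000-82735000, and no H3K27me3 peak in any library. It was 6 kb wide in every library, with the same borders. The percentile was 92.0 and 90.2 at 5M and 89.7 and 85.4 at 60M. Both 60M libraries were lower by percentile, but their signals of 591.8 and 512.4 overlapped the 636.2 and 572.8 of the 5M libraries. Averaged by age, the percentile was 91.1 ± 1.32 and 87.5 ± 3.04 (SD, n = 2), a difference of -3.57 points that 19.6% of the strong regions matched or passed. It was -1.42 without the second 60M library and -5.72 without the first. The lower rank at Hk2 therefore holds on 2 of the 5 measures, and on the other 3 the ages overlapped.

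Ldha, whose enzyme makes lactate, had 3 H3K4me3 regions in 35 kb, chr7:54085000-54120000. The strongest of them, chr7:54100000-54102999, was also the strongest at any of the 5 loci, with percentiles of 96.3 in both 5M libraries and of 96.7 and 98.5 at 60M. Its signal was 703.5 and 661.4 at 5M and 694.9 and 666.9 at 60M, with the 60M values between those of 5M. The percentile was higher in both 60M libraries by 1.29 points on average, 0.431 without the second of them and 2.14 without the first, but the centred log2 signal overlapped at -0.06 and so did the signal as deposited at -1.55, so no direction holds over the scales. The region was 3 kb wide in every library.

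The region chr7:54093000-54094999, 8 to 10 kb into the Ldha interval, differed most between the ages among the 12. Its signals were 89.1 and 84.5 at 5M and 185.3 and 218.5 at 60M, a ratio of the means of 2.33. The percentile went from 26.1 and 24.8 to 44.6 and 46.4. Both 60M libraries were far above both 5M libraries, and the gap between the ages was larger than the spread within either. The means were 25.4 ± 0.930 and 45.5 ± 1.24 (SD, n = 2), a difference of 20.1 points, and the centred log2 change was 1.16. Of the shared regions 1.28% changed as far upwards, and 1.64% of those between the 25th and 75th percentile. The −log10 p against the control was 12.46 and 13.2 at 5M and stood at the ceiling of the lists, 15.95, in both 60M libraries. Leaving out any 1 library gave 19.2 to 20.9 points. The third region, chr7:54115000-54117999, overlapped by percentile, at 54.1 and 54.2 for 5M and 54.9 and 48.6 for 60M, while its signal of 206.6 and 203.1 at 5M was below the 247 and 230.6 at 60M.

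H3K27me3 lay between these Ldha regions in some libraries, without sharing a base with an H3K4me3 region. At chr7:54096000-54097999 it was listed in both 5M libraries, each with a signal of 39.8, and in the second 60M library with 29.8, at the 3.33 percentile of its list. At chr7:54098000-54098999 it was listed in the second 5M library alone, with 37.9. The length covered by H3K27me3 in the interval was 2 kb in each 5M library and 0 and 1 kb in the 60M libraries. The ages did not overlap (exact p = 0.333), but these peaks are among the weak ones of their lists and the difference is 1 or 2 bins of 1000 bp. By order of protein-coding genes in GRCm38.p6, Ldha lies between Gtf2h1, a subunit gene of the general transcription factor TFIIH, and Ldhc, the testis lactate dehydrogenase gene. Whether either of these genes reaches into the interval was not checked. Which gene a side region belongs to was not tested.

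**Figure D4:**
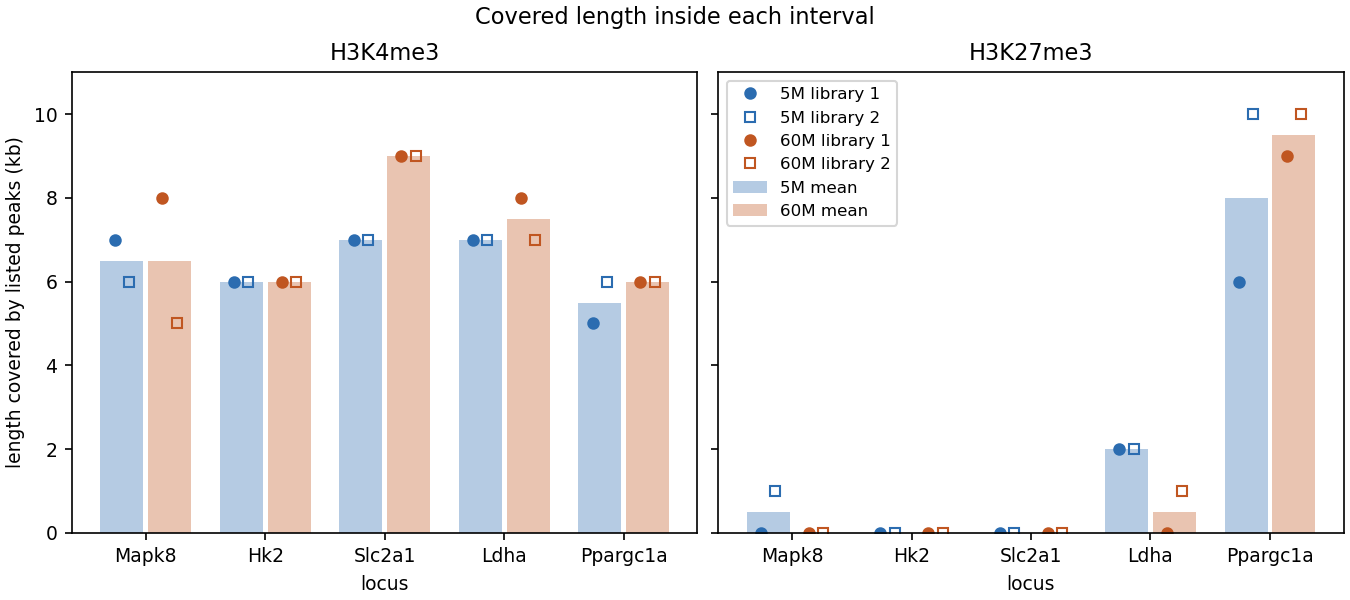
Length in kb covered by listed peaks inside each interval (y axis) for H3K4me3 and H3K27me3, with bars for the mean of the 2 libraries of an age and a point for each library. Slc2a1 has 7 kb of H3K4me3 in both 5M libraries and 9 kb in both 60M libraries, and Ppargc1a holds most of the H3K27me3.

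Ppargc1a, the PGC-1α gene, had 11 of the 16 H3K27me3 peaks in its 125 kb interval, chr5:51835000-51960000, and 3 H3K4me3 regions. Its strongest H3K4me3 region, chr5:51943000-51944999, was the weakest of the strongest regions of the 5 loci. The percentile was 60.8 and 61.2 at 5M and 58.4 and 53.4 at 60M, lower in both 60M libraries. The signals, 254.6 and 249.7 at 5M and 272.4 and 259.6 at 60M, went the other way, and the centred log2 values overlapped at a change of 0.02. No direction therefore holds over the scales at this region, where the percentile means were 61.0 ± 0.235 and 55.9 ± 3.57 (SD, n = 2). Their difference of -5.11 points was -2.59 without the second 60M library and -1.43, with overlap, in lists of equal length.

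The other 2 Ppargc1a regions held both marks in every library and were higher at 60M in H3K4me3 under all 5 measures. At chr5:51864000-51865999 the H3K4me3 signal was 118.3 and 134.9 at 5M and 184.5 and 221.4 at 60M. The percentile went from 35.2 and 40.002 to 44.5 and 47.0, with means of 37.6 ± 3.41 and 45.7 ± 1.75 (SD, n = 2). The ages did not overlap, the difference was 8.13 points (14.3 with lists of equal length) and the centred log2 change 0.63. Of the regions between the 25th and 75th percentile 9.26% changed as far upwards.

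At chr5:51885000-51886999 the H3K4me3 signal was 74.9 and 71.2 at 5M and 100.4 and 185.9 at 60M. Percentiles were 20.8 and 19.5 at 5M and 24.6 and 40.5 at 60M. Both 60M libraries were above both 5M libraries, but they were far from each other, with means of 20.1 ± 0.916 and 32.6 ± 11.2 (SD, n = 2). The difference of 12.48 points was 4.53 without the second 60M library and 20.4 without the first, so its size rests on 1 library. With lists of equal length it was 20.3 points. The centred log2 change was 0.85.

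H3K27me3 at these regions did not separate the ages. Over the first the merged H3K27me3 region spanned chr5:51863000-51866999, with highest signals of 41.1 and 53 at 5M and 44.8 and 49.2 at 60M. In the first 60M library it was made of 2 peaks. The 44.8 belongs to chr5:51863000-51863999, which lies beside the H3K4me3 region. Only the weaker peak, chr5:51865000-51865999, overlaps it, with a signal of 36.6 at the 19.8 percentile of its list. Over the other H3K4me3 region, H3K27me3 spanned chr5:51884000-51889999, with 51.4 and 62.5 at 5M and 51.2 and 56.2 at 60M. The ages overlapped at both regions, in percentile, in signal and in covered length. The mean percentile change was 5.44 at the first and -1.57 at the other, beside a median of 0.60 over the 4962 H3K27me3 regions listed in all 4 libraries. Of these, 21.7% were lower and 28.4% higher at 60M by percentile, against 0 of the 2 members in either direction. Each of 2 more H3K27me3 regions in the interval was listed in 1 library: chr5:51867000-51869999 in the first of 60M with 43, and chr5:51945000-51946999, which adjoins the strongest H3K4me3 region without overlap, in the second of 60M with 40.4.

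Among the 12 H3K4me3 regions, 2 were overlapped by H3K27me3 in all 4 libraries of that mark, against 4.85% of the shared regions, and the other 10 in none, against 86.1%. Higher H3K4me3 at 60M, as at the 2 Ppargc1a regions, was common among regions of this kind. Of the 1709 regions that held H3K27me3 in all 4 libraries, 51.3% were higher in H3K4me3 at 60M and 9.36% lower. The percentages over the shared regions were 21.4% and 44.5%. In the percentile class of 25 to 75, which holds both Ppargc1a regions, they were 20.7% and 45.6%. These shares vary with strength, and the 1709 regions were not matched for it, so a link with H3K27me3 itself was not tested. Of the 7 H3K27me3 regions at the 5 loci 2 were listed in all 4 libraries, beside 18.6% of all H3K27me3 regions. The other 5 were listed in 1 or 3 libraries. None had the pattern of both 5M libraries alone, which 6.02% of all had, nor that of both 60M libraries alone, which 4.39% had.

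By the mean percentile over 4 libraries the strongest H3K4me3 regions ranked Ldha at 97.0, Slc2a1 at 90.9, Hk2 at 89.3, Mapk8 at 78.2 and Ppargc1a at 58.5. Slc2a1 and Hk2 are neighbours whose libraries overlap, and the other neighbours in this order did not overlap in any library. H3K4me3 peaks at the loci were 1 to 6 kb wide and 45 of the 50 stood at the ceiling of the −log10 p against the control. The 16 H3K27me3 peaks had −log10 p values of 3.03 to 7.55 and signals of 29.8 to 62.5, and none reached that ceiling. The limit of the lists is 3.01. The lowest H3K4me3 peak at these genes stood at 8.07, while the H3K27me3 peaks lay closer to the limit, with a median of 4.37. Near the limit, a peak missing from a list says little about absence of the mark.

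**Figure D5:**
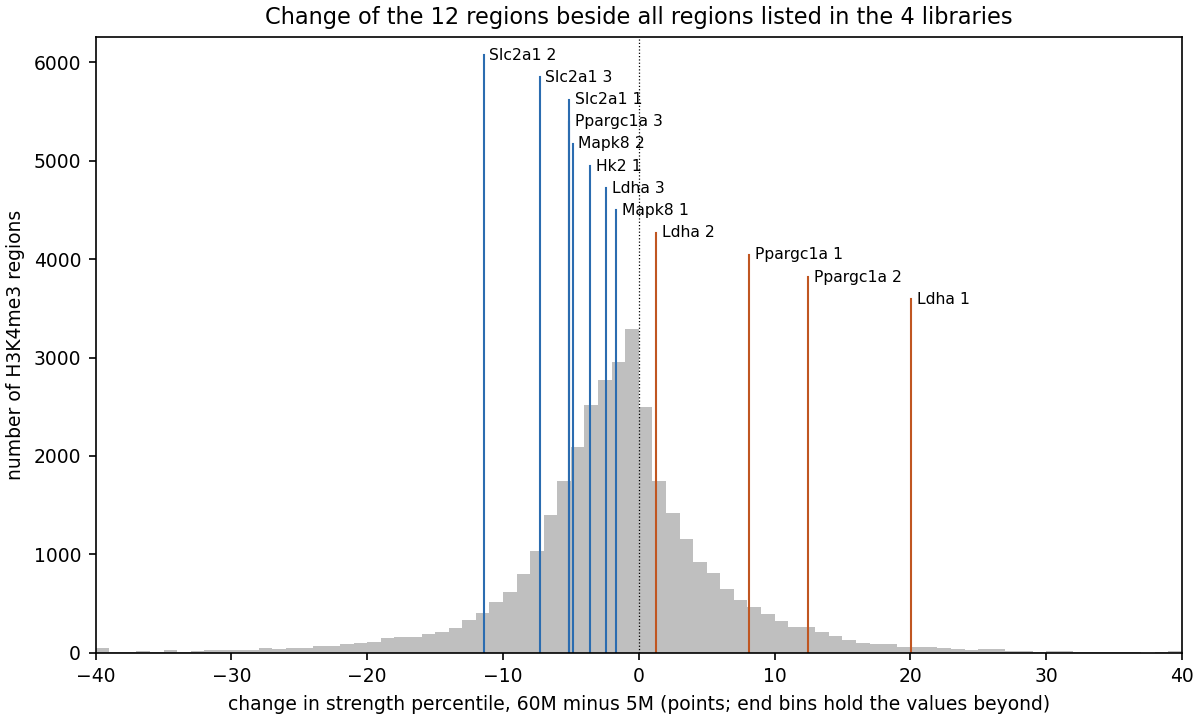
Change in strength percentile from 5M to 60M (x axis, points) for the 12 H3K4me3 regions (lines, labelled by gene and region number along the interval) over the distribution of all 35229 regions listed in all 4 libraries (grey bars, number of regions on the y axis). Ldha region 1 at 20.1 and Ppargc1a region 2 at 12.48 lie in the upper tail, and Slc2a1 region 2 at -11.4 is the lowest of the 12 in these full lists.

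Within 10 kb outside the intervals there was an H3K4me3 region 9 kb before the Mapk8 interval, chr14:34163000-34165999, listed in all 4 libraries with signals of 433.4 and 422.9 at 5M and 435 and 447.2 at 60M. Another lay 2 kb before the Hk2 interval, chr6:82662000-82662999, listed in both 60M libraries only, with signals of 69.5 and 49.7. An H3K27me3 peak at chr14:34166000-34166999, 8 kb before the Mapk8 interval, was listed in the first 60M library with 41.3. The gene names are those of the intervals. The peak positions follow mm9 chromosome lengths, where 2 peaks run past an end, while 1331 would run past the ends of mm10, and no mm9 annotation was used here to place start sites, exons or introns.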

How the data were processed

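Each library had 1 deposited peak list, called per library. The submitters' processing notes name CASAVA 1.8.4, Bowtie 1.1.2 and the build mm10, although the positions follow mm9 lengths (taken from GenomeInfoDb 1.38.1) and were not converted. The caller of the peaks is not named in the sources used here. Per the file headers, the authors list for each peak a maximum immunoprecipitation signal, a q-value (at most 0.00097) and 2 −log10 p-values, of the immunoprecipitate by itself and relative to its control. Borders lie at steps of 1000 bp. Peaks below the authors' thresholds are missing from the lists, which can turn a small difference into a missing peak.

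Peaks were merged into regions and ranked within each list, with Python 3.11.15, numpy 2.4.6 and pandas 2.3.3. Figures used matplotlib 3.10.9. For a region with several peaks in a library the highest value was taken. The merging code was tested on simulated lists. These held at most a single peak for each region and library, so peaks that split or join were not tested. The members and lists were chosen with earlier results of these data known. Within each interval the region with the highest mean percentile is given in full, and every region listed at 1 age only would be. The values of other regions were printed after they were seen. Planned lists of other pathway genes, cell type markers and genes alike in pattern needed an annotation of the peaks' build and were not analysed here, so the labelled cell type was not checked against its markers. Replicate numbers were not used to pair the libraries in the main comparison. The alternatives tried were list length, a stricter p, interval borders, gaps, overlap, other measures of strength, a replicate block and each library left out.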

Additional observations from a re-analysis of the deposited data

How the results depend on the processing

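By percentile 6 H3K4me3 regions were weaker and 4 stronger at 60M, and the strongest region was weaker at 4 loci and stronger at 1. With every list shortened to the shortest of its mark, 3 regions were weaker and 5 stronger, so the balance turned, 2 loci were weaker, 1 region kept H3K27me3 in all libraries in place of 2, and 1 H3K27me3 region was listed at 5M only in place of 0. The centred log2 signal gave 3 weaker and 5 stronger regions, with 2 loci weaker and 0 stronger. The signal as deposited gave 3 weaker and 6 stronger regions and 2 loci weaker, and the percentile of the immunoprecipitate's own p gave 0 loci stronger. No share over the shared regions was taken for lists of equal length, or for either of these measures by itself. With a −log10 p of at least 10, 1 H3K4me3 region was listed at 60M only in place of 0, and 0 regions had H3K27me3 in all libraries. Widening the intervals by 10 kb added 1 H3K4me3 region listed at 60M only. With peaks above the 25th percentile, 0 regions had both marks throughout and 1 H3K27me3 region was listed at 5M only. The strongest Ldha region, 1.29 points higher by percentile, changed by -0.0557 on the centred log2 scale, by -1.55 in signal and by -0.378 in the percentile of the immunoprecipitate's own p. The strongest Ppargc1a region, lower by percentile, changed by 0.0240 in centred log2 signal and by 13.9 in signal. With each library left out in turn, 1 to 4 H3K4me3 regions were wider and 0 to 1 narrower, and 0 to 2 H3K27me3 regions were listed at 5M only and 0 to 1 at 60M only. The measures by signal as deposited and by the immunoprecipitate's own p were chosen after seeing the data, and the planned mean signal was not run, since the lists used have no such column.

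With the replicate numbers as a block, 6 regions were weaker and 4 stronger, 0 narrower and 1 wider, and 4 loci weaker and 1 stronger, so no count changed. Library differences at the same number correlated at r = 0.08 for H3K4me3 and 0.04 for H3K27me3 over regions. A low r cannot exclude a shared culture or preparation, and the labels do not say what a number stands for. Depth is unknown, the scaling of the signal is not given, and 2 libraries for each age cannot pass a test.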

Other observations

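The summit that the lists give for a peak was not used for H3K4me3. In peaks of 3 bins the H3K4me3 summit lay in the first bin in 64.1 to 65.6% of cases and in the last in 0.478 to 0.887%, by library. In the H3K27me3 lists the first bin held 23.8 to 25.6% and the last 21.4 to 23.6%. The listed strength did not follow the listed summit: in 11 H3K4me3 regions where a joined peak had its summit in what was a weaker first piece at the other age (19 library values), the median signal was 5.47 times that of the weaker piece and 1.03 times that of the stronger one.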
